A study of Mus musculus with 48 samples.

Results

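The cluster of miR-465, miR-470 and miR-743 is a row of miRNA genes on the mouse X chromosome, and its mature miRNAs were followed here in germ cells and somatic cells of the embryonic ovary. Members were chosen by name alone, as every arm in the deposited miRNA table named miR-201, miR-463, miR-465, miR-470, miR-471, miR-509, miR-547, miR-741, miR-742, miR-743, miR-871, miR-878, miR-880, miR-881, miR-883 or miR-890, with any letter suffix. The rule gave 32 of the 563 miRNAs in the table, from 14 of the 16 names. No row analysed here was named miR-509 or miR-890.

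All libraries came from wild-type CD1 female embryos at embryonic day 13.5, an age at which female germ cells are about to enter meiosis. The pregnant founders drank vehicle only (control, 0.3% v/v DMSO), MEHP at a dose of 35 mg/kg or VZN at a dose of 50 mg/kg of body weight daily, each in the same DMSO, over the first 13 days of pregnancy. MEHP is the active monoester of a phthalate plasticiser, and VZN is the anti-androgenic fungicide vinclozolin. F1 ovaries were exposed in the uterus, F2 and F3 descend from them through the female line, and F2Sy is an F2 class with both parents from lineages given the same agent. Pools of about 80 gonads without mesonephros were split on a magnetic column with anti-CD15 beads into primordial germ cells (PGC, 93 to 96% pure by stain) and the remaining somatic cells (SC, over 90% pure). The 48 small RNA libraries make 24 groups of 2, one for each fraction, exposure and class. Whether both libraries of a group were drawn from different litters is not stated in the labels, so p-values measure the spread between libraries, which may be technical.

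The cluster belongs to a family of X-linked miRNA genes that is found in placental mammals and is known for fast turnover of copies and sequences. In mice its miRNAs are best known from the testis, where they are abundant in spermatogenic cells. A miRNA gene makes a hairpin transcript from which a 5p and a 3p strand (the arms) are cut, and the seed, bases 2 to 8 of the mature strand, sets most of its pairing with target mRNAs.

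All 32 members had a mature sequence in RefSeq (mouse build GRCm38.p6). Hairpins carrying the numbers of the rule lie on the minus strand of the X chromosome in a pair of blocks. The large block holds 19 hairpins at chrX:66776757-66839125, a span of 62.4 kb. The small block, 1149 kb away, holds the 3 hairpins of miR-201, miR-547 and miR-509 at chrX:67988096-68010179. None of the hairpins of the large block overlaps another RefSeq gene. The sequences below are those that the results turn on, the abundant members, the copies that share a seed and the pair from the small block, with the seed in capitals.
miR-465a-5p: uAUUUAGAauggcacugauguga
miR-465b-5p: uAUUUAGAauggugcugaucug
miR-465c-5p: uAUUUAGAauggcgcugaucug
miR-465c-3p: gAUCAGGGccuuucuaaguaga
miR-871-5p: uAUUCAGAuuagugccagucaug
miR-743a-5p: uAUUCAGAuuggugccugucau
miR-871-3p: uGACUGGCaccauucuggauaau
miR-470-5p: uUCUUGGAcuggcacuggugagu
miR-463-5p: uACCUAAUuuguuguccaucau
miR-741-3p: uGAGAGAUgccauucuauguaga
miR-471-3p: uGAAAGGUgccauacuauguau
miR-743a-3p: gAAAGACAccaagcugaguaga
miR-743b-3p: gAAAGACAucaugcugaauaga
miR-883a-3p: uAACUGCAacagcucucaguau
miR-883b-3p: uAACUGCAacaucucucaguau
miR-201-5p: uACUCAGUaaggcauuguucuu
miR-547-3p: cUUGGUACaucuuugagugag

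The 32 members carried 27 different seeds, and 4 seeds were shared by several members. The 5p arms of miR-465a, miR-465b and miR-465c share AUUUAGA and differ further along the strand. Counted from the 5′ end, miR-465b-5p becomes miR-465c-5p by U13C. The change from miR-465c-5p to miR-465a-5p is G14A, C20G and a further A at the 3′ end. The 3p arms of miR-743a and miR-743b share AAAGACA and differ by C9U, A12U and G18A. The 3p arms of miR-883a and miR-883b share AACUGCA and differ by G12U alone. A seed was also shared between genes with different numbers, since miR-743a-5p and miR-871-5p both carry AUUCAGA. In RefSeq the 3p strands of miR-465a, miR-465b and miR-465c have 1 and the same mature sequence, so the row named miR-465c-3p cannot be assigned to a single hairpin.

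Levels are given as CPM, the count of a miRNA per 1000000 miRNA counts listed for its library. The PGC libraries held 2932091 to 7946140 listed counts and the SC libraries 7460018 to 11761591. Of 27024 cells in the table, 7089 are blank and none is 0. For single miRNAs a blank was read neither as absence nor as a level under a limit. Sums over members or marker lists leave blanks out, so a blank adds 0 to a sum, a share or a ratio of sums. The smallest listed value of a library averaged 24.1 CPM in PGC and 13.6 CPM in SC. The fractions matched their labels by marker miRNAs: the germ cell miR-290 to miR-295 family summed to 170850 to 287160 CPM in PGC and 3558 to 21487 CPM in SC, and mesenchymal markers to 7555 to 28651 CPM in PGC and 148580 to 173980 CPM in SC. Erythroid markers (961 to 6686 CPM in PGC, 8778 to 86188 CPM in SC) and endothelial markers (2271 to 11495 CPM in PGC, 16721 to 30782 CPM in SC) were present in all libraries and higher in SC. Leukocyte markers were low in both, at 158 to 368 CPM in PGC and 100.2 to 280 CPM in SC. In bulk fractions, fewer cells of a type and less RNA per cell cannot be told apart.

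The cluster made up a large share of the germ cell miRNAs. Summed over its listed members it took 6.96 to 22.6% of the listed counts of a PGC library (median 11.6%, n = 24) and 0.104 to 1.53% of those of an SC library (median 0.605%, n = 24). The lowest germ cell library was above the highest somatic one. Of the PGC cluster counts, a median of 87.3% (85.0 to 89.7%) came from 8 members.

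The most abundant was miR-465c-3p, with 15142 to 49865 CPM in the 24 PGC libraries and a median of 23580 CPM. Next came miR-871-3p with a median of 15264 CPM and miR-465c-5p with 14958 CPM. miR-871-5p had a median of 13166 CPM, and miR-470-5p, a miRNA reported in mouse embryonic stem cells to target the coding regions of Nanog and Pou5f1, had 11100 CPM. miR-463-5p (8622 CPM), miR-741-3p (7364 CPM) and miR-471-3p (6691 CPM) closed this group. The PGC ranges of neighbours in this order overlapped, and no order among them was tested. As shares of the cluster within a PGC library, miR-465c-3p took a median of 20.6% (17.6 to 27.2%) and miR-471-3p 5.91% (4.55 to 7.38%).

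A middle group ran from miR-465b-5p (median 2358 CPM in PGC), miR-881-3p (2106 CPM), miR-743b-3p (1999 CPM) and miR-878-5p (1454 CPM) to miR-743a-3p (931 CPM) and miR-883b-5p (922 CPM). Below them stood miR-741-5p (780 CPM), miR-743b-5p (622 CPM), miR-880-3p (611 CPM), miR-743a-5p (591 CPM), miR-883a-5p (455 CPM) and miR-465a-5p (414 CPM). The lowest members listed in every PGC library were miR-878-3p (265 CPM), miR-881-5p (229 CPM), miR-471-5p (217 CPM), miR-742-3p (196 CPM), miR-742-5p (141.8 CPM), miR-883a-3p (109 CPM) and miR-463-3p (67.1 CPM). Members at 1 end of the large block, miR-743a, miR-743b, miR-742 and miR-883a, had medians of at most 1999 CPM, and none of the 8 abundant members came from there. Grouped by seed, AUUUAGA from miR-465a, miR-465b and miR-465c summed to a median of 17195 CPM in PGC, of which most was miR-465c-5p, and AUUCAGA from miR-871-5p and miR-743a-5p to 13780 CPM.

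**Figure D1:**
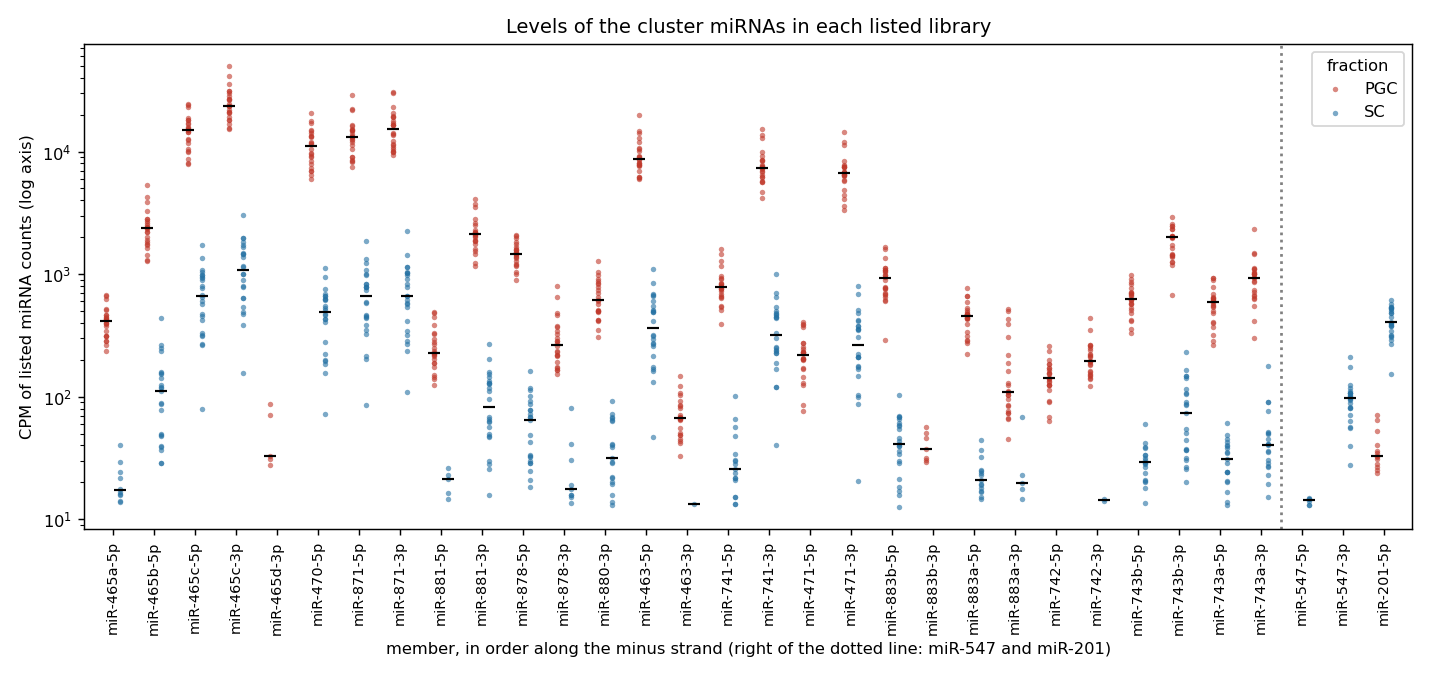
Level of each member in CPM (log axis) in every PGC (red) and SC (blue) library that lists it, in order along the minus strand, with a bar at the median. PGC points lie above SC points for the large-block members listed in both fractions except miR-883a-3p, where 1 SC library at 68.1 CPM exceeds the lowest PGC value of 45.4 CPM; miR-465c-3p is highest at a median of 23580 CPM, while miR-547 and miR-201 at the right are listed mainly in SC.

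Listing itself split the cluster by fraction. Of the 32 members, 27 were listed in all 24 PGC libraries, 11 in all 24 SC libraries and 9 in all 48. In SC, 266 of 768 member cells were blank, against 95 of 768 in PGC. Of all 563 miRNAs, a PGC library listed a median of 385 and an SC library 446. The 9 listed everywhere were miR-463-5p, both arms of miR-465c, miR-470-5p, miR-471-3p, miR-741-3p, both arms of miR-871 and miR-881-3p.

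Another 16 members were listed in all PGC libraries and in some SC libraries. They ranged from miR-465b-5p, miR-743b-3p, miR-878-5p and miR-883b-5p, each blank in 1 SC library, to miR-742-3p, listed in 2 SC libraries, and miR-463-3p, listed in 1. Between these lay miR-743a-3p (20 SC libraries), miR-743a-5p (19), miR-880-3p (19), miR-743b-5p (18), miR-741-5p (17), miR-883a-5p (15), miR-465a-5p (10), miR-878-3p (9), miR-881-5p (5) and miR-883a-3p (5). miR-471-5p, described in mouse Sertoli cells as an androgen-responsive regulator of phagocytosis, had 76.4 to 403 CPM in PGC and was blank in all 24 SC libraries. miR-742-5p had 63.2 to 261 CPM in PGC and was likewise blank throughout SC. The members listed in the fewest PGC libraries of the large block were miR-465d-3p (5 libraries, 27.6 to 87.3 CPM) and miR-883b-3p (7 libraries, 29.5 to 56.9 CPM), both blank in SC.

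The small block went the other way. miR-201-5p was listed in all 24 SC libraries at 153 to 612 CPM (median 405 CPM) and in 13 PGC libraries at 23.97 to 70.8 CPM. miR-547-3p was listed in all SC libraries at 27.9 to 211 CPM (median 97.0 CPM) and in no PGC library. Both were therefore higher or listed more often in somatic cells, and the highest PGC value of miR-201-5p was under its lowest SC value. miR-547-5p was listed in 6 SC libraries at 13.0 to 14.8 CPM, near the smallest listed values, and in no PGC library. The smallest listed value of a PGC library was 18.7 to 37.9 CPM, so its blanks in PGC do not set the fractions apart. Across the 24 SC libraries, log2 CPM of miR-201-5p and miR-547-3p had a Pearson r of 0.72, while miR-201-5p and the 9 large-block members listed in all SC libraries had a median r of 0.34; these libraries differ in depth and cell content, and the values are descriptions without a test.

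The comparison of PGC with SC asks which miRNAs belong to the germ cells. Germ cells had higher levels of all 9 members that could be tested, in controls and under both agents. In controls the log2 fold changes ran from 4.72 to 4.96 with a median of 4.88, against 0.15 over all 251 miRNAs tested. They were tested with edgeR's quasi-likelihood test with Benjamini-Hochberg adjustment, which called 85.3% of all miRNAs with 44.6% higher and 40.6% lower in PGC, so a call alone does not set the members apart. Under MEHP the 9 members had a median of 4.74 (4.50 to 4.98), where the test called 87.3% of miRNAs, 45.4% higher and 41.8% lower. Under VZN their median was 4.48 (4.35 to 4.55), where it called 80.5%, 39.4% higher and 41.0% lower.

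miR-465c-3p had control medians of 25425 CPM in PGC and 948 CPM in SC. The fitted difference was 4.93 ± 0.36 on the log2 scale (SE; adjusted p 1.06e-13 by edgeR). miR-871-3p differed by 4.88 ± 0.36 (17311 against 612 CPM) and miR-471-3p by 4.96 ± 0.43 (7165 against 259 CPM). The 3 members lay close to each other in fold change although their levels differed several fold. Without control SC F1 replicate 1, which leaves the low replicate 2 alone in its group, miR-471-3p differed by 5.80, and miR-463-5p, miR-741-3p, miR-881-3p, miR-465c-5p and miR-871-5p by 5.37 to 5.61. The remaining control differences were 4.95 ± 0.38 for miR-470-5p, 4.94 ± 0.42 for miR-463-5p, 4.83 ± 0.41 for miR-881-3p, 4.80 ± 0.39 for miR-741-3p, 4.74 ± 0.38 for miR-871-5p and 4.72 ± 0.40 for miR-465c-5p, all with adjusted p of 5.20e-12 or less by edgeR. Over all exposures, the lowest of 24 PGC libraries was between 3.97 times (miR-871-5p) and 5.44 times (miR-463-5p) the highest of 24 SC libraries, whereas 25.5% of all 251 miRNAs had every PGC library above every SC library.

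The 23 members outside this test are left blank in at least 1 library. With blanks taken as 0, edgeR called 29 of 32 members in each exposure, 27 higher in PGC, while miR-201-5p and miR-547-3p were lower in PGC. In controls this setting called 72.3% of all 563 miRNAs, 30.2% higher and 42.1% lower. These calls and their sizes depend on the value given to a blank. Other X-linked miRNAs were mixed in direction. Of 20 tested miRNAs outside the cluster whose hairpins all lie on X, in controls edgeR called 6 higher in PGC, 11 lower and 3 not at all. The highest were miR-20b-5p (5.05 ± 0.22, log2) and miR-363-3p (5.02 ± 0.31) and the lowest miR-503-5p (-4.06 ± 0.29). The 12 tested members of the miR-290 to miR-295 family had a median of 4.92, close to that of the cluster.

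Exposure effects on the PGC to SC difference were tested as interactions. Of the 9 members none was called for MEHP (median difference of effects -0.20, median of all miRNAs 0.01) or for VZN (median -0.40, all miRNAs -0.03). The smallest p belonged to miR-465c-3p for MEHP (-0.34 ± 0.43, log2, SE; edgeR adjusted p 0.984) and to miR-871-3p for VZN (-0.44 ± 0.44; edgeR adjusted p 0.972). At an unadjusted p under 0.05 the count was also 0 of 9 for both, and edgeR called 0.0% of all 251 miRNAs in either test.

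Across the PGC libraries the members moved together. Among the 27 members listed in all PGC libraries, the median Pearson r of log2 CPM over 351 pairs and 24 libraries was 0.74 (-0.09 to 0.96), against 0.01 over all pairs of 303 miRNAs. The pairs share a library total and, in part, a transcript or sequence, so this is a description. miR-741-3p had the highest median r with the other members (0.86), followed by miR-881-3p and miR-465c-5p (both 0.86). The weakest were miR-883a-3p (0.31), miR-878-3p (0.44), miR-463-3p (0.45) and miR-465b-5p (0.49). For miR-883a-3p the spread lay within groups: the control F2Sy pair had 66.3 and 523 CPM and the MEHP F2Sy pair 73.4 and 499 CPM. Since members are not independent of each other, a count of members moving one way says little more than the sum of the cluster does.

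Against the germ cell miRNA miR-292a-3p, the members had a median r of -0.31 in PGC and of 0.76 in SC (9 members). In SC the relation was tested for the most abundant member and this 1 marker only. Log2 CPM of miR-465c-3p and miR-292a-3p had a Pearson r of 0.82 and a Spearman rho of 0.78 over 24 SC libraries (both p 1e-05 by permutation, the smallest that 100000 permutations give; adjusted 3e-05 over the 6 relations computed). Without the 2 libraries farthest from the median of miR-292a-3p, r was 0.76 (permutation p 4e-05). Within exposures r was 0.95 in controls (exact permutation p 0.00221, n = 8), 0.85 under MEHP (exact permutation p 0.0108, n = 8) and 0.50 under VZN, where the exact permutation p of 0.203 (n = 8) did not pass the threshold.

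The SC library with the lowest cluster share, control F1 replicate 2, was also the lowest in miR-292a-3p. It had 157 CPM of miR-465c-3p and 1188 CPM of miR-292a-3p. In the other SC libraries miR-465c-3p ranged upward from 382 CPM and miR-292a-3p from 2239 CPM. PGC and SC libraries of the same number were also set side by side. The cluster without miR-201 and miR-547 was 13.7 to 121 times higher in PGC. The top ratio was that of control F1 replicate 2, where miR-292a-3p was 81.9 times higher. There miR-465c-3p, which has no blanks, was 96.5 times higher. Germ cell lists did not all move with the cluster in SC. MEHP F1 had cluster shares of 0.212 and 0.228%, and MEHP F2Sy 1.53 and 1.01%. The miR-290 to miR-295 family was lower in MEHP F1 (5213 and 6044 against 14273 and 10516 CPM). The miR-302 family was higher there (406 and 419 against 245 and 228 CPM). The miR-183, miR-182 and miR-96 list, also lower in MEHP F1, was lowest of SC in MEHP F2 replicate 2 (1083 CPM, cluster share 0.937%). The part of germ cell RNA in these SC values was not tested.

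**Figure D2:**
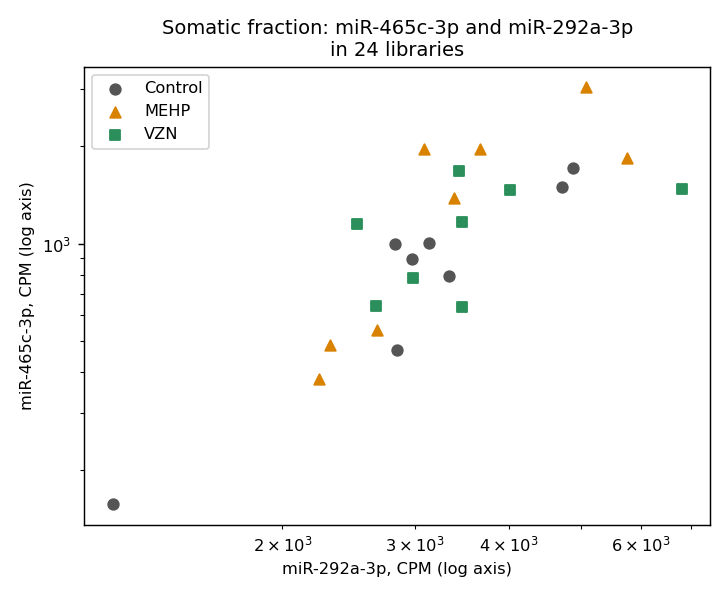
Each point is 1 of 24 SC libraries, with miR-292a-3p on the horizontal and miR-465c-3p on the vertical axis, both in CPM on log axes, and colours for exposure. Libraries rich in one were rich in the other (r 0.82), and the isolated point at the lower left is control F1 replicate 2.

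Arm use differed between hairpins far more than between libraries, except for miR-883a. In PGC, 11 miRNA names had both arms listed in every library. The 5p arm led strongly in miR-463, with a median log2 ratio of 5p to 3p counts of 7.08 (5.63 to 7.93), and less so in miR-878 (2.48, 1.23 to 3.14). The 3p arm led in miR-471 (-5.02, -5.48 to -4.34), miR-741 (-3.23, -3.62 to -2.96), miR-881 (-3.12, -3.52 to -2.52) and miR-743b (-1.53, -2.03 to -0.88). Both arms were used to a similar degree in miR-871 (-0.24), miR-742 (-0.52), miR-743a (-0.70) and miR-465c (-0.77), the last with a 3p strand shared by other hairpins. miR-883a, with a median of 1.96, ran from -0.28 to 3.39, the widest range of the 11. The related miR-883b had 4.64 in the 7 PGC libraries that list both arms. Neighbouring hairpins could differ in sign: miR-463 and miR-741 lie next to each other in the block and favoured opposite arms.

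The arm ratios were compared by exact permutation of labels within classes, two-sided, with a smallest possible p of 0.00154. Control PGC and SC libraries differed by -0.15 for miR-465c (-0.74 ± 0.20 against -0.59 ± 0.26, SD, n = 8 each, exact permutation p 0.213) and by -0.13 for miR-871 (-0.29 ± 0.11 against -0.16 ± 0.18, n = 8 each, exact permutation p 0.123), the names with both arms listed in all 16 control libraries. Under MEHP no ratio of 11 in PGC passed (differences from -0.23 to 0.15, smallest exact permutation p 0.170). Under VZN the smallest p was that of miR-871, whose ratio was 0.16 higher (-0.13 ± 0.16 against -0.29 ± 0.11, SD, n = 8 each, exact permutation p 0.0355), which did not pass after adjustment over 11 hairpins (0.390).

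**Figure D3:**
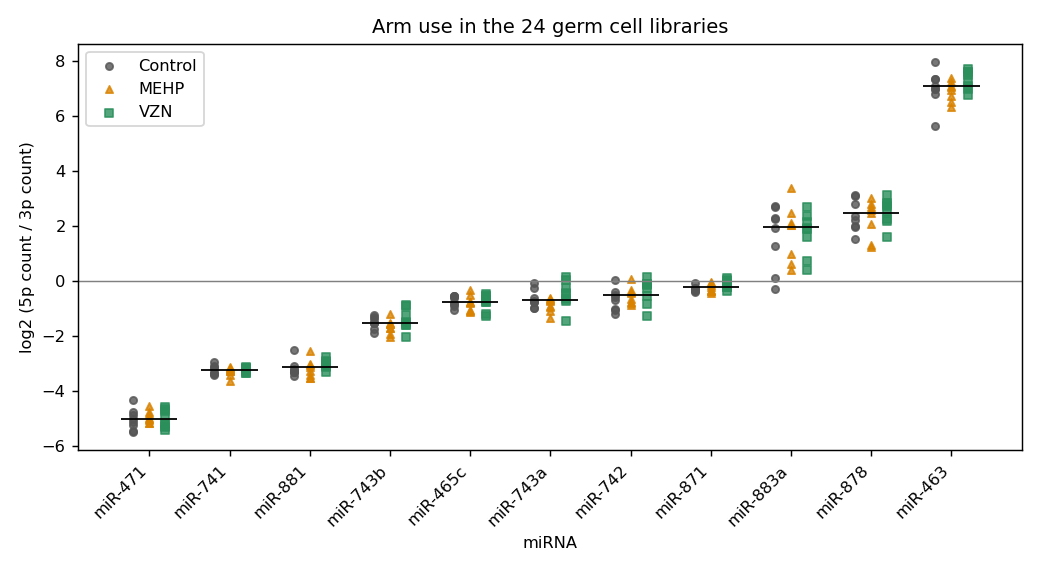
Log2 ratio of 5p to 3p counts in each of the 24 PGC libraries for the 11 miRNA names with both arms listed throughout, coloured by exposure, with a bar at the median. miR-471 sits lowest at -5.02 and miR-463 highest at 7.08, and the exposures overlap at every name.

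The exposure comparisons ask whether an agent given to the founding female alters the miRNAs of her descendants. Averaged over the 4 classes, no member passed in PGC: 0 of 27 with MEHP, 0 of 27 with VZN and 0 of 27 between the agents, where edgeR's quasi-likelihood test also called 0.0% of all 303 miRNAs in each. At an unadjusted p under 0.05 the members counted 0, 1 and 4, and all 303 miRNAs 5, 8 and 13. DESeq2 called none of the members either.

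In PGC the fitted differences from control had a median of 0.12 with MEHP (25 of 27 above 0) and of -0.21 with VZN (1 of 27 above 0), where all 303 miRNAs had medians of 0.01 and 0.00. These comparisons use the same control libraries. The MEHP average takes in F2Sy, the class with the highest median (given below), and the members are not independent of each other. miR-743a-3p, reported in mouse neuronal cells to target the mitochondrial enzyme Mdh2, had the smallest p with MEHP. Its PGC level ran from 299 to 1470 CPM in controls (median 828 CPM), from 627 to 2339 CPM with MEHP (median 1032 CPM) and from 418 to 1011 CPM with VZN (median 777 CPM). The ranges overlapped, and MEHP and control differed by 0.39 ± 0.24 (log2, SE; edgeR p 0.127, adjusted p 0.995). miR-743b-3p differed by 0.26 ± 0.20 (edgeR adjusted p 0.995).

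With VZN the smallest p was that of miR-463-3p, the minor arm of its hairpin. It had 48.5 to 123 CPM in control PGC (median 69.1 CPM), 32.7 to 80.4 CPM with VZN (median 50.4 CPM) and 51.0 to 147 CPM with MEHP (median 75.8 CPM). The 3 ranges overlapped. VZN and control differed by -0.53 ± 0.20 (log2, SE; edgeR p 0.0187, adjusted p 0.935), and miR-871-3p by -0.36 ± 0.19 (edgeR adjusted p 0.935). Between the agents all 27 members had higher fitted values with MEHP than with VZN, by a median of 0.30. All 303 miRNAs had a median of -0.01. The smallest p were those of miR-463-3p (0.67 ± 0.20, edgeR adjusted p 0.874) and miR-743a-3p (0.60 ± 0.24, edgeR adjusted p 0.874).

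In SC, 11 members were tested and none passed with MEHP, with VZN or between the agents (edgeR called 0.0% of 355 miRNAs in each, and 0 of 11 members had an unadjusted p under 0.05). The median difference from control was 0.16 with MEHP (8 of 11 above 0) and 0.16 with VZN (11 of 11 above 0). miR-465c-3p ran from 157 to 1714 CPM in control SC (median 948 CPM), from 382 to 3031 CPM with MEHP (median 1608 CPM) and from 636 to 1677 CPM with VZN (median 1155 CPM). The exposures overlapped, with differences from control of 0.43 ± 0.35 with MEHP (edgeR adjusted p 0.999) and 0.27 ± 0.35 with VZN (edgeR adjusted p 0.994). With MEHP miR-871-3p differed by 0.27 ± 0.36 (edgeR adjusted p 0.999). The smallest p between the agents were those of the small-block miRNAs: MEHP against VZN gave -0.29 ± 0.25 for miR-547-3p and -0.22 ± 0.23 for miR-201-5p (edgeR adjusted p 0.969 for both), and VZN against control gave 0.15 ± 0.25 for miR-547-3p. Without replicate 1 of VZN F2 the last value was -0.0395, so its sign, and the count of 11 of 11 above 0, rests on that library.

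Taken class by class, the cluster stood highest in the MEHP F2Sy libraries of both fractions. Its share of listed counts was 20.3 and 22.6% in MEHP F2Sy PGC and 13.6 and 13.0% in control F2Sy PGC. In SC it was 1.53 and 1.01% with MEHP and 0.557 and 0.260% in controls. In both fractions the exposed pair lay above the control pair, and the MEHP F2Sy libraries held the 2 highest shares of their fraction.

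**Figure D4:**
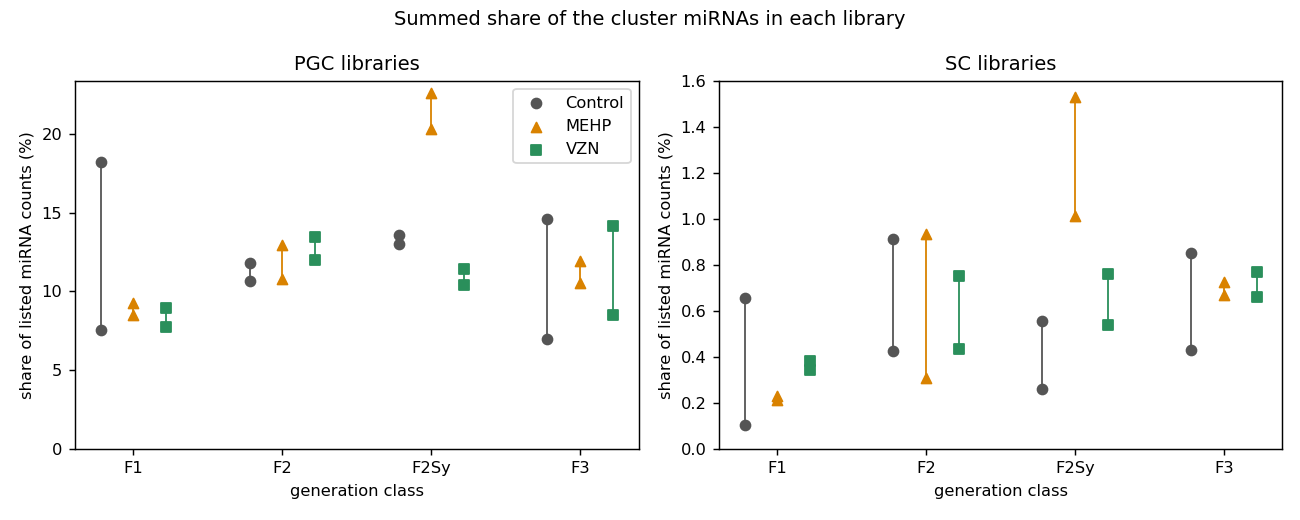
Share of listed miRNA counts taken by the cluster in each PGC (left) and SC (right) library, in percent on axes from 0, by class, with lines joining the 2 libraries of a group. The MEHP F2Sy pairs are the highest of both panels, at 20.3 and 22.6% (PGC) and at 1.53 and 1.01% (SC), and the control F1 pairs are far apart.

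In MEHP F2Sy PGC, 26 of 27 members had a log2 fold change above 0, with a median of 0.78 against 0.01 over all 303 miRNAs. In 23 of 27 both MEHP libraries exceeded both controls, which held for 28.4% of all miRNAs. No member was called (edgeR called 0.0% of miRNAs), and 7 of 27 had an unadjusted p under 0.05, as did 27 of 303 miRNAs. The smallest was that of miR-743a-3p, with 2339 and 1476 CPM with MEHP and 735 and 713 CPM in controls. Its difference was 1.38 ± 0.49 (log2, SE; edgeR adjusted p 0.506). The exposed pair lay above the controls but differed within itself as well.

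Marker levels moved in the same libraries. In MEHP F2Sy PGC the miR-290 to miR-295 family summed to 187870 and 170850 CPM against 205210 and 228730 CPM in controls, and the mesenchymal list to 16313 and 27169 CPM against 9510 and 12113 CPM. In VZN F2Sy PGC, where the cluster share was 11.4 and 10.4%, the mesenchymal list reached 28651 and 18555 CPM. The MEHP cluster share was high where the miR-290 to miR-295 sum was low. Both are parts of the same library total, so these values are not independent. The part of cell content in the difference was not tested.

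In MEHP F2Sy SC, all 11 members were above 0 with a median of 1.71, against -0.05 over all 355 miRNAs. In 10 of 11 both MEHP libraries exceeded both controls, which held for 20.3% of all miRNAs. edgeR called no member (0.0% of miRNAs), with 4 of 11 members and 24 of 355 miRNAs at an unadjusted p under 0.05. miR-871-3p had 2234 and 1435 CPM with MEHP and 657 and 287 CPM in controls, a difference of 1.96 ± 0.74 (edgeR adjusted p 0.629). miR-465c-3p had 3031 and 1953 CPM against 999 and 469 CPM, a difference of 1.77 ± 0.73 (edgeR adjusted p 0.629). The small-block miR-201-5p and miR-547-3p had smaller differences, of 0.29 ± 0.47 and 0.34 ± 0.51.

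Germ cell markers were mixed in direction in these SC libraries. The miR-290 to miR-295 family summed to 14273 and 10516 CPM with MEHP and 8996 and 8001 CPM in controls. Its member miR-292a-3p was at 5071 and 3082 CPM against 2825 and 2839 CPM. The list of miR-183, miR-182 and miR-96 was also higher, at 4519 and 3887 CPM against 3508 and 2985 CPM. The miR-302 family was lower, at 245 and 228 CPM against 371 and 492 CPM. Erythroid markers stood at 18304 and 86188 CPM against 15467 and 8778 CPM. Their part in the cluster's difference was not tested.

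**Figure D5:**
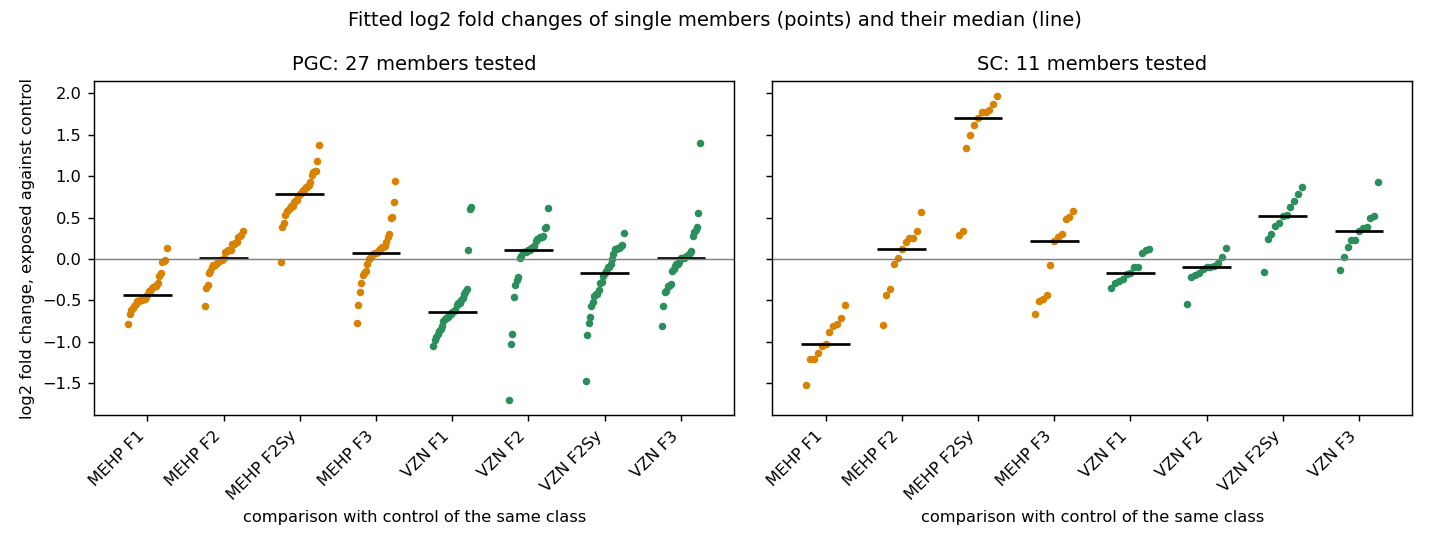
Fitted log2 fold changes of exposed against control libraries of the same class for the 27 members tested in PGC (left) and the 11 tested in SC (right), with the median as a line. The MEHP F2Sy medians of 0.78 and 1.71 are the highest in their panels. All F1 medians lie below 0, the lowest of them at -0.43, -0.64 and -1.02. No single member passed the test.

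In F1 the medians of the fitted values lay below control. With MEHP the median was -0.43 in PGC (1 of 27 above 0) and -1.02 in SC (0 of 11 above 0), and with VZN -0.64 in PGC (3 of 27 above 0) and -0.16 in SC. The control F1 libraries differed from each other more than this, with cluster shares of 18.2 and 7.56% in PGC and 0.654 and 0.104% in SC. The shares of all exposed F1 libraries lay between those of the control pair in both fractions. miR-471-3p, with the smallest p among PGC members in VZN F1, had 4071 and 3622 CPM with VZN and 11202 and 4834 CPM in controls. Its difference was -1.05 ± 0.40 (edgeR p 0.0169, adjusted p 0.988). Both VZN libraries exceeded or fell below both controls in 2 and 3 of the 27 members, where the shares over all miRNAs were 11.6 and 6.27%.

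In the other classes the PGC medians stayed near 0, at 0.02 for MEHP F2, 0.08 for MEHP F3, 0.11 for VZN F2, -0.17 for VZN F2Sy and 0.01 for VZN F3. edgeR called no member in any of the 16 class comparisons of both fractions and 0.0% of all miRNAs in 15 of them, with 0.33% in VZN F2Sy PGC, where the called miRNA is not a member. In VZN F2Sy PGC, 7 of 27 members had both VZN libraries above both controls and 7 had both below, against 25.7 and 4.95% of all miRNAs. In SC the medians were 0.12 for MEHP F2, 0.21 for MEHP F3, -0.10 for VZN F2, 0.52 for VZN F2Sy and 0.34 for VZN F3. In VZN F2Sy SC, 5 of 11 members had both VZN libraries above both controls and 0 had both below. The shares over all miRNAs were 25.4 and 13.2%. The same control F2Sy pair, with cluster shares of 0.557 and 0.260% in SC, served both agents.

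Whether an effect differed between the 4 classes was tested jointly. No member passed for either agent in PGC or SC (edgeR called 0.0% of miRNAs in each). The smallest p in PGC was that of miR-463-3p for MEHP (p 0.0445, edgeR adjusted p 0.986), ahead of miR-743a-3p (p 0.0710, edgeR adjusted p 0.986), and in SC that of miR-871-3p for MEHP (p 0.0556, edgeR adjusted p 0.569). The high MEHP F2Sy values are therefore not shown to differ from the other classes for any single member. The controls were also compared between classes: no member passed in PGC, where the smallest p were 0.110 for miR-883a-3p and 0.177 for miR-465b-5p, nor in SC, where those p were 0.454 for miR-465c-3p and 0.535 for miR-465c-5p (edgeR called 0.0% of miRNAs in both; no member had an unadjusted p under 0.05).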

How the data were processed

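Small RNA libraries from 48 samples in 24 groups of 2 were analysed from 1 table of whole-number read counts per mature miRNA. The authors deposited these counts summed over each miRNA and its isomiRs, per the file headers. Bowtie 1.3.1 and build mm39 were used, per the submitters' processing notes; how reads were assigned to miRNAs and why cells were left blank remain unstated in the notes and labels. Totals of listed counts leave out the reads of blank cells and are not sequencing depth.

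Only miRNAs with a value in each library of a fit entered it: 251 for all 48 libraries (9 members), 303 for PGC (27 members) and 355 for SC (11 members), holding 97.1, 99.4 and 99.5% of listed counts. edgeR 4.0.16 in R 4.3.3 was used with filterByExpr by group, TMM factors, 1 coefficient per group, a robust quasi-likelihood fit and a two-sided test. Benjamini-Hochberg adjustment covered all miRNAs of a comparison, with calls at 0.05. The biological coefficient of variation was 0.310, 0.336 and 0.297. SE is the absolute log2 fold change over the square root of F. The design had assumed complete counts. Scripts were tested on simulated data.

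Mature sequences and hairpin positions are RefSeq's (GRCm38.p6), matched by miRNA name, so positions are not in the build of the counts. All tested members were named between fractions, and in the other comparisons each call or the 2 smallest p, in the class comparisons per fraction. Picked with their values known were miR-883a-3p in F2Sy, miR-201-5p and miR-547-3p in MEHP F2Sy SC, and the other X-linked examples. The MEHP SC libraries set beside the germ cell lists were picked in the same way. The members and lists were chosen with earlier results of these data known. Alternatives were RLE factors, library size alone, blanks as 0 without a filter, blanks at the smallest listed count, DESeq2 1.42.0, only the groups compared, a replicate block, omission of single libraries and adjustment over 8 class comparisons together. The joint test between classes was added after the data were seen.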

Additional observations from a re-analysis of the deposited data

Results flagged for a closer look

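Dixon's test for a single far value was run on 123 sets of 8 libraries (1 member, fraction and exposure each) and marked 4 of them; chance alone marks about 1 in 20. In control SC, replicate 2 of F1 had 40.1 CPM of miR-741-3p, where the other 7 control libraries had 168 to 540 CPM. The same library had 85.8 CPM of miR-871-5p, where the others had 327 to 999 CPM. It is the library with the lowest level of miR-292a-3p in SC. In VZN PGC, replicate 2 of F1 had 63.2 CPM of miR-742-5p, against 124 to 200 CPM in the others. Replicate 2 of VZN F2Sy PGC had 291.6 CPM of miR-883b-5p, against 648 to 1117 CPM in the others, and this library held the fewest listed counts of all (2932091).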

How the results depend on the processing

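The direction of every tested member between PGC and SC, and its call, held under each alternative. The number of members called changed with the treatment of blanks: with blanks as 0 it was 29 (27 higher in PGC, 2 lower) and with blanks at the smallest listed count 32 (30 higher, 2 lower) in each of the 3 exposures, where the shares of all 563 miRNAs called were 69.1 to 72.3% and 85.6 to 88.3%. In the latter a blank stands, by construction, higher in PGC than in SC on average. With only the groups compared, it was 14 under VZN (82.0% of all miRNAs called), since more miRNAs were listed in all libraries of that fit. Leaving out 1 library gave 9 to 13 in controls (13 without SC F1 replicate 2, with 82.7% of all called) and 9 under MEHP and VZN. Without control SC F1 replicate 1, 6 control differences moved by over 1.5 times.

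Exposure counts stayed at 0 except in class comparisons. Over single libraries left out they ran from 0 to 1 in both fractions: miR-883b-5p was called in VZN F2Sy PGC without replicate 1 of that group (-2.10 in place of -0.92, edgeR adjusted p 0.0100; 6.13% of all miRNAs called), which leaves the library of fewest counts, and miR-547-3p in MEHP F3 SC without replicate 2 (-1.70 in place of -0.66, edgeR adjusted p 0.0478; 22.8% of all called). With blanks at the smallest listed count, 2 members of 28 tested, and 0.385% of 520 miRNAs, were called in MEHP F2Sy SC, miR-465a-5p (1.47) and miR-881-5p (0.98), both listed in both exposed libraries and blank in both controls. The difference of miR-547-3p between VZN and control SC was 0.15 with all libraries and ran from -0.0395 (without replicate 1 of VZN F2) to 0.32 when 1 was left out; the cause was not tested. Library size alone moved the median of all miRNAs between fractions by -0.17 in controls and -0.13 under MEHP.

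Replicate numbers did not pair libraries in most groups. Deviations of same-numbered libraries correlated over 0.1 in 4 of 12 PGC and SC pairs (median r 0.00, -0.46 to 0.53). They did so in 5 of 12 pairs of exposures in PGC (-0.35 to 0.56) and 4 of 12 in SC (-0.20 to 0.42). The highest r, 0.56, was that of control and MEHP F2Sy PGC, and its cause was not tested. The fit with the replicate number as a block left the counts of members called at 9 of 9 in the 3 fraction comparisons and at 0 elsewhere. With 2 libraries a group, and blanks of unknown rule, small differences of low members could not be resolved. In single classes, large differences of abundant members could stay uncalled as well. In MEHP F2Sy SC, miR-871-3p differed by 1.96 ± 0.74 (edgeR adjusted p 0.629).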
